A study of Mus musculus with 16 samples.

Results

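The miR-297, miR-466, miR-467, miR-468 and miR-669 families are short, repeat-rich mouse miRs, and all probes for them on an Agilent mouse miR array were followed through early hematopoiesis. Members were chosen by name alone: every mouse miR of these 5 families, star arms included. The array carried 26 of them among its 577 miRs, with 81 of its 1712 probes: 4 miR-297, 10 miR-466, 8 miR-467, 1 miR-468 and 3 miR-669 miRs. On mm9, the build of the probe annotation, 24 of the 26 targets lie on the plus strand of chromosome 2 within 47.964 kb, chr2:10388586-10436549. The annotated target of miR-297a is at chr10:42855314-42855332 and that of miR-468 is at chr6:81846596-81846612, on the minus strand.

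A miR is cut from a hairpin RNA and loaded into Argonaute, where its seed, bases 2 to 8, pairs with mRNAs and represses them. The chromosome 2 cluster is known as the Sfmbt2 cluster, since it lies in an intron of Sfmbt2, a Polycomb-group gene that is imprinted and active in the placenta. Its hairpins are near copies of one another, and many of the mature miRs hold runs of UG (usually on the 5p arm) or AC (usually on the 3p arm). Close copies and simple repeats are difficult for short hybridisation probes to tell apart.

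RNA came from bone marrow of female C57Bl/6 mice aged 6 to 8 weeks, with cells of 10 to 20 animals pooled per replicate, so each replicate is a pool. After lineage depletion and c-kit enrichment, flow cytometry gave long-term hematopoietic stem cells (LT-HSC, CD34- FLT3-, 1 array), short-term HSC (ST-HSC, CD34+ FLT3-, 3 arrays) and multipotent progenitors (MPP, CD34+ FLT3+, 3 arrays) from Sca1+ cells. From Sca1- cells came the CMP (common myeloid), GMP (granulocyte-monocyte, CD34+ FcRg+) and MEP (megakaryocyte-erythroid, CD34- FcRg-) progenitors, with 3 arrays each. The stem cell and the myeloid populations were sorted separately, so sort and group cannot be told apart. No gene was altered and no agent was given.

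Levels are quantile-normalised log2 intensities of the probe that stands for a miR. The lowest value is a floor of 1.62, set from the negative control spots, and values at the floor have no order. Well above background is the scanner software's call, and a miR was tested across populations if 1 probe had that call on at least 3 of the 16 arrays. Levels of different miRs come from different probes and are not set against each other.

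Arrays lay on 3 slides, and slide 1, with replicates 1 and 2 of CMP, GMP and MEP, was read on another scanner. Its negative controls were brighter, with a 95th percentile of 9.94 to 44.3 units. The same percentile lay between 1.53 and 2.21 units for slide 2 and between 1.99 and 3.35 units for slide 3. Known markers sorted the arrays by label: miR-223 was highest on the 3 GMP arrays, miR-144, miR-451 and miR-486 on the 3 MEP arrays, and miR-125b-5p and miR-99a on the 7 stem cell arrays, each without overlap. miR-126-3p, also a stem cell miR, overlapped.

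No entry of the RefSeq miR table used here has the same name as any of the 26 members, so their own mature sequences are not shown. Close namesakes with the same family numbers show the 2 kinds of repeat, and miR-574-5p, the only miR on the array by the same name whose RefSeq sequence holds UGUGUGUG or ACACACAC, serves as an outside comparison. Capitals mark the seed:
miR-466k: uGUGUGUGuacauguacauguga
miR-669n: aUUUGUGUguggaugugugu
miR-574-5p: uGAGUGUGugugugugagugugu
miR-466i-3p: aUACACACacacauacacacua
miR-467f: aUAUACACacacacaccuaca
On GRCm38.p6, miR-466k lies at chr3:85467396-85467418, miR-669n at chr3:115979905-115979924 and miR-466i-3p at chr13:17747552-17747573, all on the plus strand. miR-467f lies at chr11:69635419-69635439 on the minus strand, and miR-574-5p at chr5:64970328-64970350 on the plus strand. UG pairs run up to 4 in a row in miR-466k and miR-669n and 6 in miR-574-5p, and AC pairs up to 5 in miR-466i-3p and 6 in miR-467f. Of 1738 mature mouse miRs in the table, 11 (0.633%) hold UGUGUGUG or ACACACAC. The 5 seeds all differ.

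The first question was how much of the family was detected. Of the 26 members, 11 were well above background on at least 3 arrays, as were 237 of all 577 miRs on the array, a similar share. Another 10 members were detected on none, and no member was detected on all 16. The tested members were miR-466c-5p, miR-466e-3p, miR-466f-3p and miR-466g, miR-467a, miR-467a*, miR-467b and miR-467e, miR-468, and miR-669a and miR-669c. Thus 4 of 10 miR-466, 4 of 8 miR-467, 2 of 3 miR-669 and the 1 miR-468 miRs were tested, and 0 of 4 miR-297 miRs. miR-466f-3p was detected on 15 arrays, miR-669c on 13, miR-466c-5p and miR-467b on 12, and the other 7 tested members on 3 to 10.

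Detection below the limit was scattered. miR-297b-3p was detected on 2 MPP arrays, miR-467c on 2 GMP arrays, miR-466d-3p on 1 MPP array, miR-297a on 1 GMP array and miR-466h on 1 MEP array. Nowhere detected were miR-297b-5p, miR-297c, miR-466a-5p, miR-466b-5p, miR-466d-5p, miR-466f-5p, miR-467b*, miR-467d, miR-467e* and miR-669b. Arms of 1 hairpin differed in this: miR-466f-3p was detected on 15 arrays and miR-466f-5p on 0, and miR-467b on 12 and miR-467b* on 0. For 6 members a probe was designed for other miRs too, so that the signal under miR-466e-3p also covers miR-466a-3p, miR-466b-3p, miR-466b-3-3p and miR-466c-3p, and that under miR-467a* covers miR-467d*.

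Members were detected most often in MPP and GMP, at shares near those of all miRs. The 3 MPP arrays detected 9, 11 and 11 members and the 3 GMP arrays 10, 11 and 6. On MEP arrays 6, 4 and 5 were detected, on ST-HSC arrays 2, 8 and 7, on CMP arrays 5, 1 and 3, and on the LT-HSC array 5. The means were 10.3 ± 1.15 in MPP, 9 ± 2.65 in GMP, 5.67 ± 3.21 in ST-HSC, 5 ± 1 in MEP and 3 ± 2 in CMP (SD, n = 3 each). As a share of the 26, MPP detected 39.7% and GMP 34.6%, beside 37.7% and 32.4% of all miRs on the array. ST-HSC detected 21.8% beside 34.5%, MEP 19.2% beside 29.6%, LT-HSC 19.2% beside 24.6% and CMP 11.5% beside 27.3%. The CMP ranges overlapped those of ST-HSC and MEP. The CMP 1 and CMP 2 arrays also had the highest negative controls, at 30.6 and 44.3 units, and their part in the low CMP counts was not tested.

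**Figure D1:**
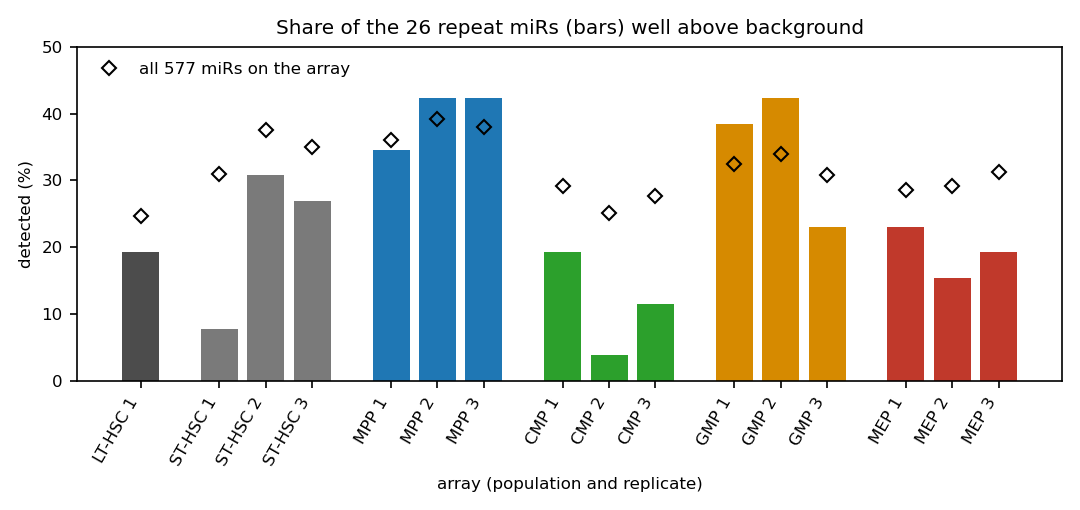
Bars show the percentage of the 26 repeat miRs called well above background on each array, and diamonds the percentage of all 577 miRs on the same array. The bars run from 3.85% on CMP 2 to 42.3% on MPP 2, MPP 3 and GMP 2, while the diamonds stay between 24.6% and 39.2%.

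Across the 6 populations 9 of the 11 tested members differed (limma's moderated F, adjusted p under 0.05), where 82.7% of the 237 tested miRs did. Lowest was the adjusted p of miR-467b (2.46e-06), and miR-466g (0.145) and miR-669a (0.0590) missed the threshold. Between MEP and the other myeloid progenitors the family was split. Lower in MEP than in CMP and GMP were miR-467b, miR-467a, miR-467a*, miR-467e, miR-466e-3p and miR-669a, while miR-466c-5p, miR-466f-3p, miR-468 and miR-669c were higher. In total 10 of 11 were called (adjusted p under 0.05, 67.5% of all tested miRs), 6 lower and 4 higher, beside 45.1% lower and 22.4% higher among all tested. In 8 of the 10 the MEP arrays did not overlap the CMP and GMP arrays, as in 54.9% of all tested miRs. These counts include miR-467a, which passed the detection filter through CMP and GMP arrays alone and so had to differ. They also include miR-467e, which would have missed the filter without its 2 GMP arrays. In sorted bulk RNA, fewer cells with a miR and less of it per cell cannot be told apart.

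**Figure D2:**
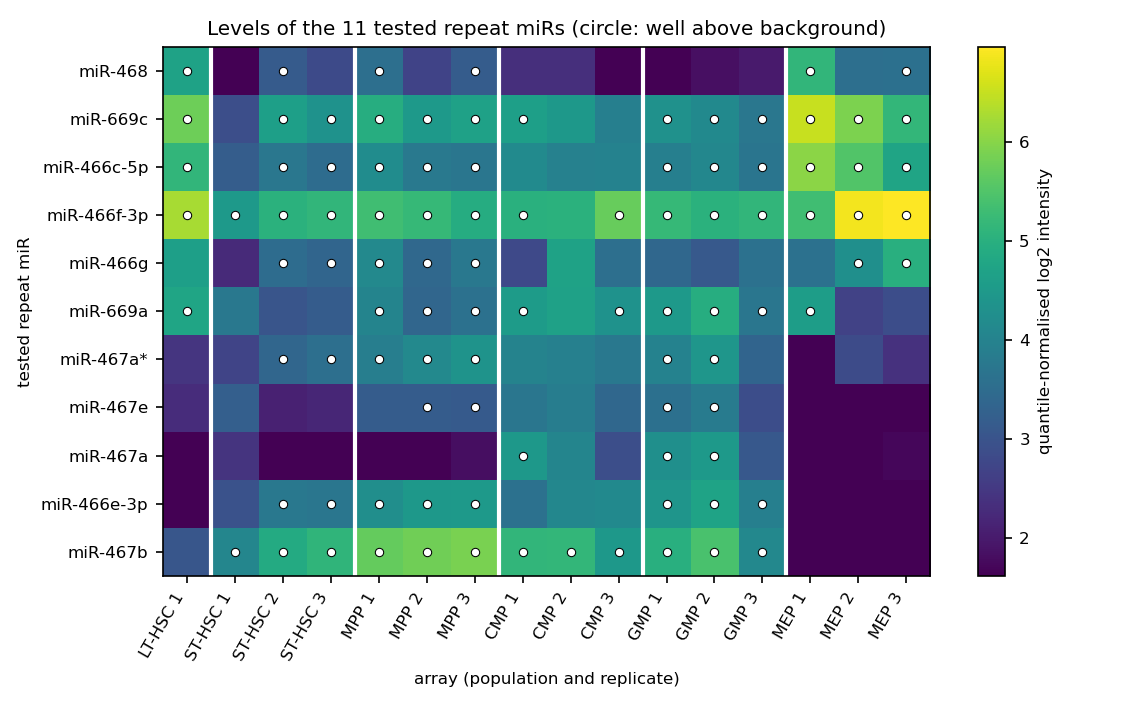
Quantile-normalised log2 intensity (colour) of the 11 tested repeat miRs on the 16 arrays, ordered from the largest rise to the largest fall in MEP, with a circle where the probe was well above background. The 3 MEP columns are darkest, at the 1.62 floor, in the rows of miR-466e-3p, miR-467b and miR-467e.

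miR-467b had the largest difference among the members. Its level was 3.04 on the LT-HSC array, 4.08, 4.88 and 5.11 on the ST-HSC arrays, 5.70, 5.81 and 5.88 on the MPP arrays, 5.13, 5.15 and 4.46 on the CMP arrays, 4.999, 5.43 and 4.12 on the GMP arrays, and 1.62 on each MEP array. It was well above background on all 12 ST-HSC, MPP, CMP and GMP arrays and on none of the others. The 3 MEP arrays lay under all the rest.

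Before normalisation, the miR-467b probe read 2.30, 2.36 and 0.176 units on the MEP arrays, and between 9.35 and 59.1 units on the 6 CMP and GMP arrays. MEP was lower than CMP and GMP by a log2 difference of -3.26 ± 0.29 (SE, limma, adjusted p = 5.91e-07). Since MEP gave no reading above background, the fold is a bound of at least 2.34-fold. By mean level the order was MPP (5.80 ± 0.09), CMP (4.91 ± 0.39), GMP (4.85 ± 0.67), ST-HSC (4.69 ± 0.54; SD, n = 3 each), LT-HSC and MEP. MPP did not overlap CMP, and the arrays of CMP, GMP and ST-HSC overlapped.

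miR-466e-3p ran close to miR-467b, with r = 0.937 over the 16 arrays, among them the 3 MEP arrays where both were at the floor. miR-466e-3p ranged from 3.61 to 4.72 on the CMP and GMP arrays and was at the floor on the 3 MEP arrays and the LT-HSC array. The difference between MEP and the other myeloid progenitors was -2.53 ± 0.23 (limma, adjusted p = 6.23e-07), a bound of at least 1.41-fold. It was well above background on the 3 GMP but on 0 of the CMP arrays, so its size in CMP, and with it the bound, is not firm.

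miR-467e fell to the floor on all 3 MEP arrays too. It was detected only on 2 MPP and 2 GMP arrays, and without the GMP arrays would have missed the detection filter. Its difference of -1.93 is therefore given as a description. The size is not firm, since no bound above 1 could be given. miR-467a* differed by -1.63 ± 0.30 (adjusted p = 2.87e-04, limma), a bound of at least 1.20-fold, and ranged from 1.62 to 2.84 in MEP, under its CMP and GMP range of 3.34 to 4.43. For both, MEP did not overlap CMP and GMP, and 2 of 6 CMP and GMP arrays were well above background. The bound for miR-467a* is therefore not firm either. miR-669a had the smallest called difference, -1.08 ± 0.39 (limma, adjusted p = 0.0257), with MEP at 2.66 to 4.595 overlapping CMP and GMP.

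miR-467a and miR-467b have overlapping annotated targets, chr2:10402888-10402905 and chr2:10402886-10402903, yet did not move alike outside MEP. On the 3 MPP arrays, where miR-467b reached its highest levels, miR-467a was between 1.62 and 1.82 and was never well above background. miR-467a was well above background only on CMP 1, GMP 1 and GMP 2, all on slide 1, where it read 28.8, 24.6 and 31.0 units before normalisation. The reading on CMP 1 was under that array's negative control percentile of 30.6 units. On slide 2 it read 3.36 units on CMP 3 and 5.54 units on GMP 3. Since these 3 arrays alone took miR-467a past the detection filter, its differences between populations are given as descriptions, without a test. MEP differed from the other myeloid progenitors by -2.24 over both slides, -2.71 within slide 1 and -1.29 within slide 2. The bound of at least 1.17-fold is not firm, since only 3 of the 6 CMP and GMP arrays were well above background.

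The members that rose in MEP were led by miR-468, whose target is outside the cluster. Its level was 4.69 on the LT-HSC array, 1.62, 3.15 and 2.83 on the ST-HSC arrays, 3.57, 2.70 and 3.16 on the MPP arrays, 2.33, 2.34 and 1.62 on the CMP arrays, 1.62, 1.83 and 2.00 on the GMP arrays, and 5.13, 3.57 and 3.60 on the MEP arrays. MEP lay above every CMP and GMP array, by 2.14 ± 0.40 (limma, adjusted p = 3.11e-04). On 2 of 3 MEP arrays and 0 of 6 CMP and GMP arrays miR-468 was detected, so the bound of at least 1.11-fold is not firm.

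All 3 MEP arrays detected miR-669c. Its level was 5.78 on the LT-HSC array, 2.90, 4.63 and 4.33 on the ST-HSC arrays, 4.96, 4.51 and 4.68 on the MPP arrays, 4.63, 4.46 and 3.93 on the CMP arrays, 4.31, 4.15 and 3.73 on the GMP arrays, and 6.51, 5.90 and 5.15 on the MEP arrays. MEP did not overlap CMP and GMP and differed from them by 1.65 ± 0.37 (limma, adjusted p = 1.45e-03).

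miR-466c-5p was detected on all 3 MEP arrays as well. It was at 5.13 on the LT-HSC array, 3.19, 3.74 and 3.50 on the ST-HSC arrays, 4.21, 3.78 and 3.72 on the MPP arrays, 4.17, 3.97 and 3.98 on the CMP arrays, 3.93, 4.10 and 3.69 on the GMP arrays, and 6.03, 5.51 and 4.73 on the MEP arrays. The difference of 1.45 ± 0.25 (limma, adjusted p = 1.97e-04) came without overlap. MEP and LT-HSC, its 2 highest populations, did overlap.

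miR-466f-3p was the most widely detected member and rose less cleanly. MEP ranged from 5.33 to 6.96 and CMP and GMP from 5.01 to 5.72, so MEP 1 fell within the CMP and GMP range. The difference was 1.19 ± 0.32 (limma, adjusted p = 5.01e-03). miR-466g differed by 0.76 ± 0.41 and did not pass the test (limma, adjusted p = 0.113).

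**Figure D3:**
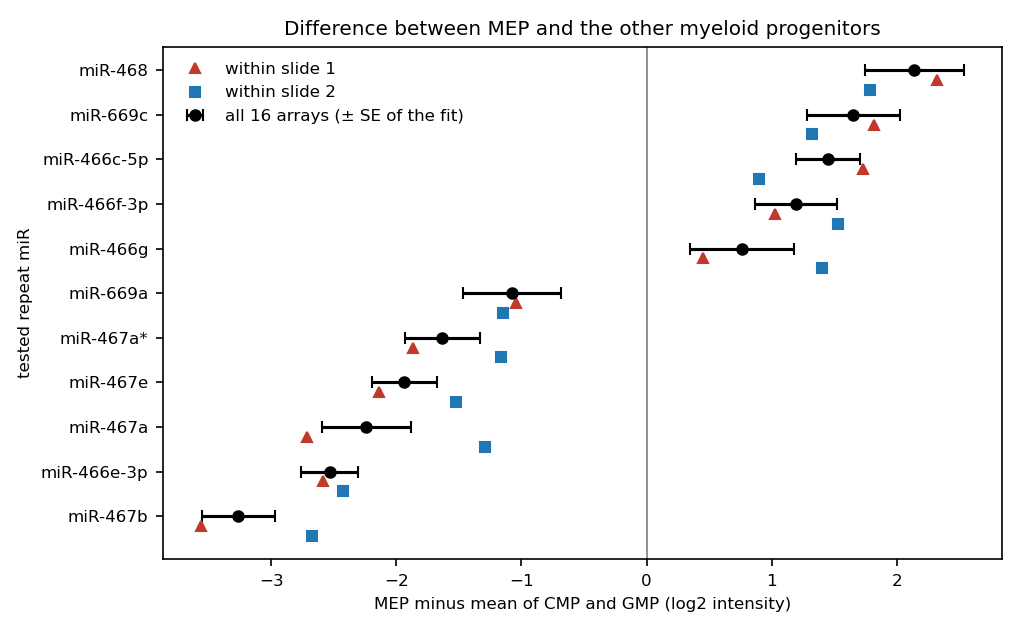
Log2 difference between MEP and the mean of CMP and GMP for the 11 tested repeat miRs. Circles with bars are the estimate ± SE from all 16 arrays, triangles slide 1 (2 MEP arrays against 4) and squares slide 2 (1 against 2), and for each miR all 3 lie on the same side of 0.

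The split held on each slide. All 11 members had the same direction within slide 1 and within slide 2, and under each of 32 alternatives to the processing. Within slide 2, where negative controls were low on all arrays, miR-467b differed by -2.67, miR-466e-3p by -2.43, miR-466c-5p by 0.90 and miR-669c by 1.32. On CMP 1 and CMP 2 only 4 and 2 of the 11 members exceeded the arrays' own negative control percentile, compared with 10 on CMP 3 and 11 on GMP 3. Over all tested miRs the median difference was -0.49, and scaling to the 75th percentile of the probes detected on all arrays moved it to -0.17. With that scaling miR-467a* (adjusted p = 0.0530) and miR-669a (adjusted p = 0.696) were no longer called and miR-466g was (1.67, adjusted p = 0.0107), which made 5 higher and 4 lower. Without slide 1, 5 of 11 stayed past the threshold (1 higher and 4 lower).

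Set against the mean of the other 5 populations, MEP differed in 9 of 11 members (68.4% of all tested miRs), 4 higher (24.1%) and 5 lower (44.3%). The 5 lower members were detected on 0 MEP arrays, so they passed the detection filter through the other populations alone. Their lower MEP values are given as descriptions. miR-467b (-3.04 ± 0.27) and miR-467e (-1.40 ± 0.24) did not overlap with any other population, which held for 32.9% of all tested miRs. miR-669a did not pass the test here (-0.75 ± 0.36, limma, adjusted p = 0.0802).

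**Figure D4:**
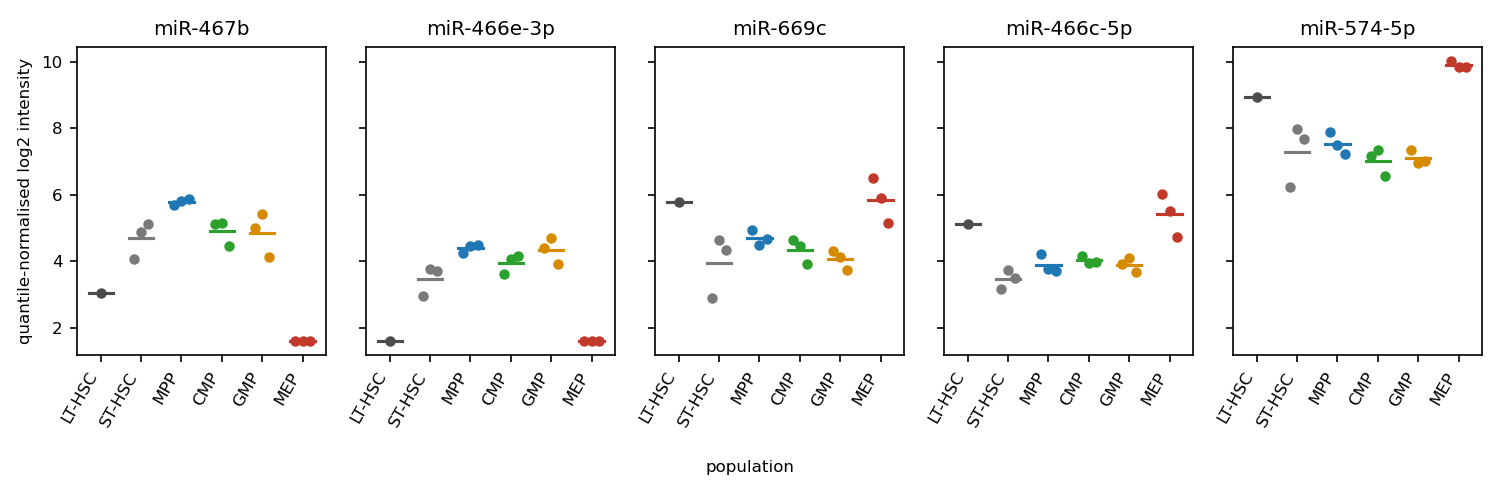
Quantile-normalised log2 intensity by population for miR-467b, miR-466e-3p, miR-669c, miR-466c-5p and, outside the family, miR-574-5p, with a point per array and a line at the mean. In MEP the first 2 are at the floor of 1.62 and the other 3 are at their highest means, and the LT-HSC array is next to MEP for miR-669c, miR-466c-5p and miR-574-5p.

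For some members the LT-HSC array lay on the same side as MEP. Against ST-HSC and MPP, 4 of 11 members were called (29.1% of all tested miRs), 2 higher (8.02%) and 2 lower (21.1%). miR-466c-5p (1.44 ± 0.39) and miR-468 (1.85 ± 0.60) were higher, and miR-467b (-2.20 ± 0.44) and miR-466e-3p (-2.32 ± 0.35) were lower, miR-467b by at least 1.74-fold. miR-669a went the other way from MEP. By population mean it was highest in LT-HSC (4.76 on its 1 array), though GMP 2 was higher at 4.95. It was not called (1.27 ± 0.60). For the 4 called members adjusted p was 0.0125, 0.0343, 2.26e-03 and 4.11e-04 in that order (limma). For these the LT-HSC array lay outside the whole range of the 6 ST-HSC and MPP arrays, as it did for 68 called miRs (28.7% of the 237). This population has 1 array, which the fit assumed to vary like the others. The LT-HSC array lay on slide 2 with ST-HSC 1, and the remaining ST-HSC and MPP arrays lay on slide 3. Slide and population thus cannot be fully told apart in this comparison. Without normalisation the difference of miR-466c-5p turned to -0.14, and 2 of the 4 calls, miR-467b and miR-466e-3p, remained. With scaling to the 75th percentile of detected probes 8 members were called, 6 higher and 2 lower, and with slide as a block also 8, 5 higher and 3 lower. The array was also the dimmest, with a summed signal of 35255 units against 66755 to 336394 on the rest. The erythroid miRs stood high on it too: miR-451 was at 11.1, miR-486 at 6.34 and miR-144 at 5.29, above all ST-HSC and MPP arrays. The part of brightness or of erythroid RNA in the LT-HSC values was not tested.

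No member differed between ST-HSC and MPP after adjustment (0 of 11 by limma, 4.64% of all tested miRs). At an unadjusted p under 0.05 there were 3, namely miR-466e-3p, miR-467a* and miR-467b, all lower in ST-HSC and without overlap. Their differences were -0.92 ± 0.26, -0.91 ± 0.35 and -1.10 ± 0.34, with adjusted p of 0.0705, 0.165 and 0.0855. ST-HSC 1 was on slide 2 and the other 5 arrays on slide 3. With slide as a block, miR-467b (-0.80 ± 0.23, adjusted p = 0.0346, limma) and miR-467e (-1.002) were called. miR-467e would have missed the detection filter without its 2 MPP arrays, so its difference is given as a description.

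Against the mean of the other 5 populations, each weighted equally, GMP was higher in 5 members and lower in 1. Thus 6 of 11 were called (48.1% of all tested miRs, 29.1% higher and 19% lower). Higher were miR-466e-3p (1.33 ± 0.21), miR-467b (0.84 ± 0.27), miR-467a* (0.72 ± 0.28), miR-467e (0.79) and miR-467a (1.83). miR-467e and miR-467a are not tested on their own, as above. Lower was miR-468 (-1.49 ± 0.37), which was detected on 0 GMP arrays and so passed the detection filter through the others alone. Of the 5 higher members, only miR-467a had its highest mean in GMP. MPP had the highest mean for miR-466e-3p, miR-467a* and miR-467b, and CMP for miR-467e. The balance turned with scaling to the 75th percentile of detected probes, which called 2 members higher and 5 lower: miR-466e-3p and miR-467a stayed higher, and miR-466c-5p, miR-466f-3p, miR-466g, miR-468 and miR-669c were lower. Under it miR-467b was at 0.17, miR-467e at 0.04 and miR-467a* at -0.061, none of them called. In none of these was GMP clear of the other arrays, where 5.91% of all tested miRs were. The MEP arrays are among those GMP was compared with, so the comparisons share them. GMP and CMP means lay close, at 4.35 ± 0.40 and 3.95 ± 0.30 for miR-466e-3p and 3.96 ± 0.77 and 3.81 ± 0.81 for miR-467a (SD, n = 3 each). Leaving out either GMP 1 or GMP 2 left 3 members called, and without slide 1 there were 0.

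The 7 arrays of HSC subsets were set against the 9 of myeloid progenitors, with each population weighted equally. Here 3 of 11 members were called (48.1% of all tested miRs, 25.3% higher and 22.8% lower). Each had overlap, where 5.91% of all tested miRs had none. The 1 LT-HSC array counted as much as the 3 arrays of ST-HSC or of MPP. Without it 4 members were called, with 2 of these 3 among them. For miR-468 the LT-HSC array was at 4.69, above the ST-HSC and MPP means of 2.53 and 3.14. miR-467b (0.72 ± 0.22, limma, adjusted p = 0.0185) and miR-468 (0.78 ± 0.30, adjusted p = 0.0485) were higher in the HSC subsets. The third was miR-467a, at a difference of -1.41 given as a description, with 0 of the 7 HSC subset arrays well above background. Slides 1 and 3 each held arrays of 1 side only. With slide as a block none of the 3 was called, at adjusted p of 0.0670 for miR-467b and 0.636 for miR-468, while miR-467e was called higher in the HSC subsets (0.62, adjusted p = 0.0217) against -0.25 without the block. Scaling to the 75th percentile of detected probes called 5, with 4 higher and 1 lower. Within slide 2, which held 2 HSC subset arrays and 3 myeloid ones, the differences were 0.16 for miR-467b, 0.75 for miR-468 and -0.55 for miR-467a.

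Shared signal among the probes was described next. Each member had 2 to 4 probes matching 13 to 21 bases of the miR. For all 11 tested members the longest probe was the brightest, as for 196 of 230 tested miRs with probes of several lengths (85.2%). The 8 other passing probes of 7 members all gave MEP the same direction as the probe that stood for the miR, and correlated with it at a median r of 0.944 (0.479 to 0.987). The lowest of these was the shorter probe of miR-466g.

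The 11 members did not move as 1 signal. Over the 16 arrays, the 10 pairs among the 5 members higher in MEP had a median r of 0.626 (0.474 to 0.913), and the 15 pairs among the 6 lower members a median r of 0.635 (0.163 to 0.937). The 30 pairs across the sets had a median r of -0.533 (-0.778 to 0.0996). All 55 pairs of tested members had a median of -0.120, with 26 above 0, and all tested miR pairs had a median of 0.0519. Both sets were formed from the MEP values on these arrays, which share slides and normalisation, so these are descriptions. miR-669a was the least typical of its set, at r = 0.163 with miR-467a* and 0.223 with miR-466e-3p, though at 0.596 with miR-467e and 0.635 with miR-467a.

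miR-574-5p, with the UG repeat shown above, ran with the 5 members whose levels were higher in MEP, miR-466g among them. It was well above background on all 16 arrays, at 10.02, 9.85 and 9.85 on the MEP arrays, 8.95 on the LT-HSC array and 6.23 to 7.97 on the other 12. Its r was 0.901 with miR-669c, 0.871 with miR-466c-5p, 0.851 with miR-468, 0.754 with miR-466f-3p and 0.634 with miR-466g. With the 6 members lower in MEP it was negative, from -0.843 for miR-467e to -0.300 for miR-669a. Both sets were formed from the MEP values on these arrays, where miR-574-5p was highest in MEP. The signs of these r thus largely follow from that choice, and a shared repeat signal was not tested.

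**Figure D5:**
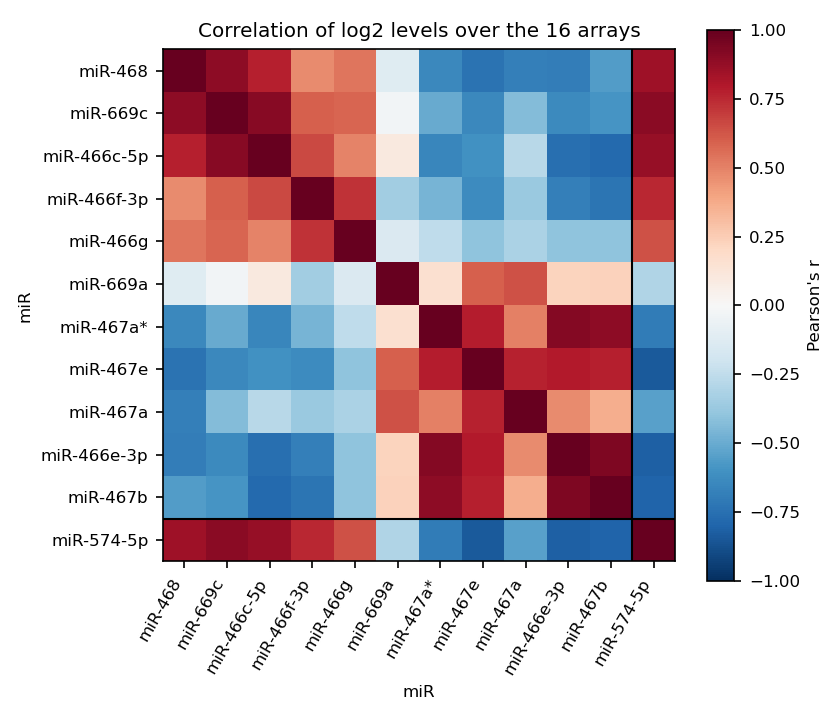
Pearson's r of log2 levels over the 16 arrays among the 11 tested repeat miRs, ordered by their MEP difference, and with miR-574-5p in the last row and column. The 5 members at the top left (miR-468 to miR-466g) and the 6 after them form 2 blocks of positive r with mostly negative r between them, and miR-574-5p goes with the first block.

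Among the miRs outside the family, those most like the mean of all 11 tested members were miR-93* (r = 0.751), miR-425 (0.711), miR-423-5p (0.681), miR-191 (0.678) and miR-181b (0.644). The mean of the 5 members higher in MEP was most like miR-574-5p (r = 0.942), then miR-486 (0.813) and miR-451 (0.798), both erythroid miRs, miR-680 (0.791) and miR-139-3p (0.785). The mean of the 6 lower members was most like miR-181b (r = 0.962), miR-361 (0.962), miR-345-5p (0.924), miR-130b (0.917) and miR-130b* (0.915). All r are over 16 arrays. Both sets were formed from the MEP values on these arrays, so likeness to miRs high or low in MEP largely follows from that choice.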

How the data were processed

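Per the file headers, the deposited scanner files hold spot intensity from Agilent Feature Extraction (versions 9.5.3.1 for slide 1 and 10.2.1.3 for slides 2 and 3), background-subtracted and not normalised between arrays. The log2 values deposited with them, quantile normalised by the authors with limma, were an alternative here.

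Flagged spots were left out, spots of a probe were averaged, and probe means were quantile normalised over the 16 arrays, raised to a floor of 3.07 units (median over arrays of the negative controls' 95th percentile) and log2-transformed. Detection of a probe required the well-above-background call for a share of its unflagged spots of 0.5 or more. The 493 probes detected on at least 3 arrays stood for 237 miRs, 2 of them viral, by the brightest probe. Population means were fitted with lmFit and eBayes (limma 3.58.1, R 4.3.3, reading by data.table, version 1.17.8) on all arrays, with 10 residual and 3.1 prior degrees of freedom, Benjamini-Hochberg adjustment over 237 miRs, a call at an adjusted p under 0.05, and two-sided tests. Tables and figures used Python 3.11.15, numpy 2.4.6, pandas 2.3.3 and matplotlib 3.10.9.

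A bound sets the brighter side's mean against, on each array of a side without detection, the higher of the lowest detected signal and the probe's own value. It is not firm where some arrays of the brighter side were not well above background. Members called in any comparison without overlap and detected on every array of its higher side (miR-468 through LT-HSC) were given array by array, the others by range. Members, lists and alternatives were chosen with earlier results of these data known. On simulated data with 60 of 237 miRs changed by 1.5 log2 units, the fit recovered 86.7% for MEP against CMP and GMP and 55% for the LT-HSC comparison. Replicates are pools of mice, and the number of arrays limits the precision. Sequences are RefSeq's.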

Additional observations from a re-analysis of the deposited data

How the results depend on the processing

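Counts of called members, out of 11 unless stated, changed by more than 1.5 times under these settings. For HSC subsets against myeloid progenitors (3), the count was 5 when scaled by the 75th percentile of probes detected on all arrays, 1 without normalisation, with normexp, with the deposited values or with slide as a block, and 0 with a floor of 10 units. For GMP against the others (6), it was 3 without normalisation, with normexp or with the deposited values, 2 with the floor of 10, and 0 without slide 1. For MEP against the others (9), it was 5 with the floor of 10 and 3 without slide 1, and for MEP against CMP and GMP (10), 6 without normalisation and 5 without slide 1. For LT-HSC (4), it was 8 with the 75th percentile scaling or slide as a block, 2 without normalisation or with normexp, and 7 by unadjusted p. For ST-HSC against MPP (0), it was 1 with scaling to the 75th percentile of all probes, normexp, the floor of 10, filters of 1 array (of 16 tested) or none (of 26), the mean of passing probes or the deposited values, 2 with slide as a block and 3 by unadjusted p. The moderated F (9) fell to 5 without normalisation or without slide 1. Leaving out each array in turn gave 8 to 10 for the F, 2 to 4 for HSC subsets, 3 to 7 for GMP, 7 to 10 for MEP, 9 to 11 for MEP against CMP and GMP, 0 to 2 for ST-HSC against MPP (2 without GMP 3, 1 without ST-HSC 1) and 3 to 7 for LT-HSC (7 without MEP 1). The cause was not tested.

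Mean members detected were 3 in LT-HSC, 8.67 in MPP and 6.33 in GMP when every spot had to be detected, and 2, 6.33 and 4.67 when at least 2 probes had to be. No member was detected on all 16 arrays, so that filter gave no value. Requiring signals above each array's own negative controls, an alternative chosen after seeing the data as was leaving out slide 1, changed no count of called members. It asked this on at least 3 of the 16 arrays, not on those compared, and all 11 tested members passed. It therefore could not show the part of the bright slide 1 controls. Titles without a number were given the free one, so numbers shared across slides are names only: deviations correlated above 0.1 in 10 of 11 same-numbered pairs on 1 slide and in 2 of 19 across slides. The numbers were not taken to pair the samples. A replicate block gave 10 members by F, 2 for HSC subsets, 6 for GMP, 9 for MEP, 10 for MEP against CMP and GMP, 4 for LT-HSC and 0 between ST-HSC and MPP. It changed 3 of 66 single calls: miR-468 was lost in HSC subsets (adjusted p = 0.0822) and in LT-HSC (0.0749), and miR-466f-3p was gained in LT-HSC (0.0367).

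Of 2101 recomputed differences, 1852 kept direction and side of the threshold, 127 lost and 65 gained the call, and 57 changed sign, 11 of them with scaling to the 75th percentile of detected probes. Of the 57, 51 were called in neither fit, and 6 were called in at least 1: miR-466c-5p in LT-HSC without normalisation (-0.14), miR-467a* in GMP with the 75th percentile scaling (-0.061), and, for HSC subsets, miR-466e-3p with that scaling (0.61) and without the LT-HSC array (0.63, with a range of -0.21 to 0.63 over the arrays left out) and miR-467e with that scaling (0.53) and with slide as a block (0.62).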
